A study of Homo sapiens with 8 samples.

Results

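The serine/arginine-rich (SR) splicing factor genes SRSF1, SRSF2, SRSF3, SRSF4, SRSF5, SRSF6, SRSF7, SRSF9, SRSF10 and SRSF11 were followed through a selective ribosome profiling experiment on TRiC, the cytosolic chaperonin, and prefoldin (PFD), which delivers clients to it. These are 10 of the 60664 genes in the count tables and 10 of the 12 genes named SRSF and a number. SRSF8 and SRSF12, the others of that name, are followed below in a list of other SR and RS domain proteins. The 10 genes were taken by family name, except that SRSF2 was singled out for its high count in the PFD inputs. Every comparison of SRSF2 that uses those inputs or the PFD pulldowns set beside them is therefore a description and carries no test. U2OS (U-2 OS) is a human osteosarcoma line, and 2 knock-in lines of it were used, with the HaloTag on the TRiC subunit CCT4 (genotype CCT4-Halo) or on the PFD subunit PFDN4 (genotype PFDN4-Halo). Cells of both lines received 100 µg/ml cycloheximide (CHX), which holds ribosomes on the mRNA, for 1 min and were crosslinked with 2 mM DSP for 30 min. RNase I left ribosome-protected fragments (RPFs), which were sequenced from the whole ribosome pellet (input) and from ribosomes recovered through the tagged chaperone (pulldown), with 2 replicates in each of the 4 groups. Both tags sit in the endogenous genes, each in a line grown from 1 sorted clone, and no untagged line is used here, so the bait, the clone and the library set cannot be told apart in any comparison between TRiC and PFD.

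SR proteins carry RNA recognition motifs at the amino-terminal end and a tail rich in arginine-serine dipeptides, the RS domain. They bind exonic enhancers in pre-mRNA, help recruit U1 and U2 snRNPs to splice sites, and several also act in mRNA export and translation. Kinases of the SRPK and CLK families phosphorylate the RS domain, and the importin transportin-3 (TNPO3) carries phosphorylated SR proteins into the nucleus. The RS domain is of low sequence complexity and largely disordered, unlike the actin, tubulin and WD repeat folds for which TRiC is best known.

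The RS domains are shown first because they set the family apart. Those of SRSF1, SRSF2, SRSF5 and SRSF9 are printed, and no link between these sequences and the values below was tested. Each line gives the 30 codons of a coding exon richest in RS and SR dipeptides (90 bases, hg38, 5′ to 3′ on the coding strand), with the codons of those dipeptides in capitals.
SRSF1, chr17:58005457-58005546, minus strand, exon 4: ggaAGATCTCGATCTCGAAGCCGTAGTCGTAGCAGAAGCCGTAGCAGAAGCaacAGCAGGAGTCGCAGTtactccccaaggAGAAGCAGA
SRSF2, chr17:76736359-76736448, minus strand, exon 2: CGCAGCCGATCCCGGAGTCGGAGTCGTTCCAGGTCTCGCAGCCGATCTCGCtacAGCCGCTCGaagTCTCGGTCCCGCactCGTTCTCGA
SRSF5, chr14:69771225-69771314, plus strand, exon 8: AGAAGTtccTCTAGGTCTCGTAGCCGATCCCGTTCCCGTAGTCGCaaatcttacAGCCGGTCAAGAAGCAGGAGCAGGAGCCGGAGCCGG
SRSF9, chr12:120462058-120462147, minus strand, exon 4: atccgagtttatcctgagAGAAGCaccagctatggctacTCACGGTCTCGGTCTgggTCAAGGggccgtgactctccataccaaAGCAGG
The SRSF2 and SRSF5 windows each hold 23 such dipeptides, that of SRSF1 holds 21, and that of SRSF9, a member with a short RS domain, holds 7. Over whole proteins the density ran from 4.07 dipeptides per 100 residues in SRSF9 to 23.5 in SRSF2, with 12.5 in SRSF1 and 22.3 in SRSF7. The codons differed as well. AGA and AGG made up 20.8% of the arginine codons of SRSF2 and 64.5% of those of SRSF11, and at 66.8% SRSF2 had the coding sequence richest in GC, SRSF10 the poorest.

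The libraries held 9523128 to 32637658 counts, and the 10 SR genes together took 0.129% to 0.184% of them. The highest shares, 0.184% and 0.177%, were those of the PFD inputs. Without SRSF2 the other 9 genes took 0.124% to 0.140% in all 8 libraries, with both TRiC pulldowns (0.136% and 0.140%) above all 4 PFD libraries and overlapping the TRiC inputs. Of the markers of the mesenchymal and bone lineage, COL1A1, SPARC, VIM and RUNX2 were measured in every library, whereas COL1A2 had 1 to 66 counts and TWIST1 0 to 11. The epithelial marker EPCAM had 1 to 277 counts, and CDH1, KRT19 and the blood markers had at most 21. Levels are given below as CPM, counts scaled to a common library size by TMM, as mean ± SD with n = 2, and a gene is called where the adjusted p of edgeR's quasi-likelihood test over all genes tested was under 0.05.

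Members can be compared with each other only per length, here as CPM per kilobase of coding sequence. In the TRiC inputs SRSF5 stood first at 466 CPM per kb, followed by SRSF3 at 390 and SRSF7 at 384, whose replicates overlapped. SRSF10 and SRSF9 (both at 126, overlapping) came next, then SRSF11 at 95.5, SRSF4 at 65.5, SRSF6 at 50.7, SRSF2 at 47.8 and SRSF1 at 18.8, each below the range of the gene before it. SRSF3 and SRSF7, close relatives that both act as adaptors for mRNA export, were among the first 3 in all 4 groups. In the PFD inputs SRSF2 led at 786 CPM per kb, ahead of SRSF7 at 455 and SRSF3 at 422, whose replicates overlapped, and SRSF5 at 282. In the PFD pulldowns SRSF2 was seventh in order, as in the TRiC pulldowns, and at 64.0 it overlapped SRSF4 at 63.9. SRSF1 was last in the TRiC inputs, the PFD inputs and the PFD pulldowns, and ninth in the TRiC pulldowns, where its range overlapped that of SRSF6.

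The place of SRSF1 in that order depends on how its reads could be counted. All 744 bases of its coding sequence lie under same-strand exons of ENSG00000266086, an annotated coding gene that spans SRSF1 and the DNA beyond it (chr17:57989038-58007246), and this gene was listed at 0 counts in all 8 libraries. The gene counting of STAR, which the authors used, sets aside a read that lies over exons of more than 1 gene. SRSF6 has 63.4% of its coding sequence under same-strand exons of ENSG00000288000, also listed at 0 in all 8 libraries. With the exons annotated here, no read within the SRSF1 coding sequence would then be counted, nor would reads in the shared part of SRSF6. Where the counted SRSF1 reads lay cannot be seen from counts per gene. The counts of SRSF6 may cover part of its translation at most, those of SRSF1 perhaps none, and the levels per kb of both are uncertain. Where a count ignores strand, reads under opposite-strand exons are set aside too, and the strand setting used is not given. Such exons cover 85.7% of the SRSF2 coding sequence and 21.3% of that of SRSF9, so their levels per kb are uncertain as well. Copies elsewhere in the genome bear on other members. Of the 28-base stretches of coding sequence, 47.9% of SRSF6, 37.6% of SRSF3, 36.4% of SRSF10 and 14.8% of SRSF9 occur in another annotated gene, mostly processed copies, and reads from these would not align uniquely, while SRSF4, SRSF5 and SRSF7 had none.

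**Figure D1:**
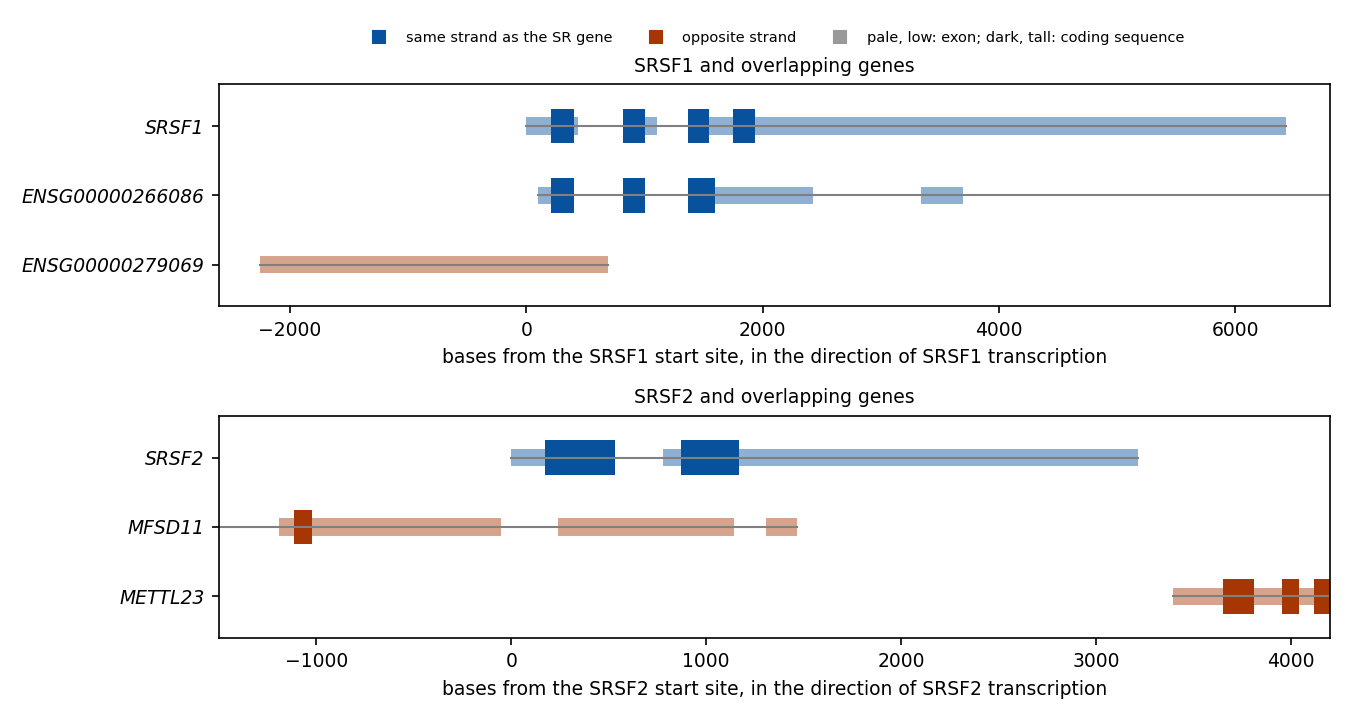
Annotated exons (pale, low boxes) and coding sequence (dark, tall boxes) around SRSF1 and SRSF2, in bases from the start site of each and in its direction of transcription. Same-strand exons of ENSG00000266086 cover all of the SRSF1 coding sequence (100%), and opposite-strand exons of MFSD11 cover 85.7% of that of SRSF2.

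The comparison of the TRiC pulldown with its input asks which nascent chains TRiC meets during translation. Of the 10 SR genes, SRSF1 and SRSF2 were higher in the pulldown, SRSF3, SRSF7 and SRSF9 were lower, and the remaining 5 were not called. Over all genes, 3444 of 17934 tested (19.2%) were called, so the 5 of 10 stood above the background share, in both directions. Only 11778 of the genes tested averaged 100 counts or more, as all 10 SR genes did. The share called among these was not computed, and no set test was run. The median log2 fold change of the 10 was 0.10, against -0.0032 over all genes tested.

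SRSF1, which promotes the use of exonic enhancers and also binds translating ribosomes, was counted 382 and 439 times in the TRiC inputs and 1207 and 1140 times in the pulldowns. Both pulldowns (35.88 and 44.80 CPM) lay well above both inputs (13.64 and 14.35). Its log2 fold change was 1.52 ± 0.13 (SE), or 2.88-fold, with an edgeR adjusted p of 7.82e-07, and 59 of the 11778 genes counted 100 times or more on average had a higher one. Of 223 other coding genes with at least 80% of the coding sequence under same-strand exons, 11 (4.93%) were at least 2-fold higher in the TRiC pulldown, beside 52 of 8505 genes (0.611%) without overlap on either strand, a difference that was not tested. The part of this overlap in the value of SRSF1 was not tested, and its counted reads may lie outside the coding sequence.

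SRSF2, which binds exonic enhancers and is needed for splicing of many transcripts, had 884 and 973 counts in the TRiC inputs and 1568 and 1363 in the pulldowns. The pulldowns, at 46.61 and 53.56 CPM, did not overlap the inputs, at 31.56 and 31.81. Its log2 fold change was 0.66 ± 0.11 (SE; edgeR adjusted p = 0.000508). This is the comparison of SRSF2 that does not use the libraries it was chosen on. Opposite-strand exons of MFSD11 cover 85.7% of its coding sequence, and their part in these TRiC values was not tested. SRSF5, a member induced by insulin and growth signals, rose from 361.2 and 399.3 to 425.9 and 453.1 CPM without overlap, but at 0.21 ± 0.07 (SE) it missed the threshold (edgeR adjusted p = 0.0528) and passed it under 6 of the 11 other settings tried.

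The 3 members with lower values changed less. SRSF9 fell from 84.58 and 82.39 CPM in the TRiC inputs to 64.77 and 60.44 with the pulldown, a log2 change of -0.41 ± 0.09 (SE; edgeR adjusted p = 0.00407). SRSF3 fell from 194.9 and 189.0 CPM to 158.2 and 152.4 (-0.31 ± 0.08 (SE), edgeR adjusted p = 0.00924). SRSF7 fell from 262.4 and 285.9 to 226.4 and 227.9 (-0.27 ± 0.07 (SE), edgeR adjusted p = 0.0158). In each of the 3 genes both pulldowns lay below both inputs. SRSF10, which represses splicing when dephosphorylated, and SRSF11 had log2 fold changes of 0.21 and 0.19 with edgeR adjusted p = 0.0979 and 0.0990, and SRSF4 and SRSF6, at 0.01 and -0.04, had overlapping groups.

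These calls rest on the small spread of the TRiC libraries. With the spread estimated over all 8 libraries none of the 10 was called, the adjusted p of edgeR being 0.0952 for SRSF1, 0.283 for SRSF2 and 0.403 to 0.579 for SRSF3, SRSF7 and SRSF9, and 31 of 18855 genes were called in all. Without TRiC input replicate 1, SRSF3 (0.147), SRSF7 (0.0564) and SRSF9 (0.0578) lost their calls, and without TRiC input replicate 2, SRSF3 (0.0580) and SRSF7 (0.273) did, whereas SRSF1 and SRSF2 were called without any 1 library. Without TRiC pulldown replicate 1, SRSF5 and SRSF10 were called as well, as were more of all genes.

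**Figure D2:**
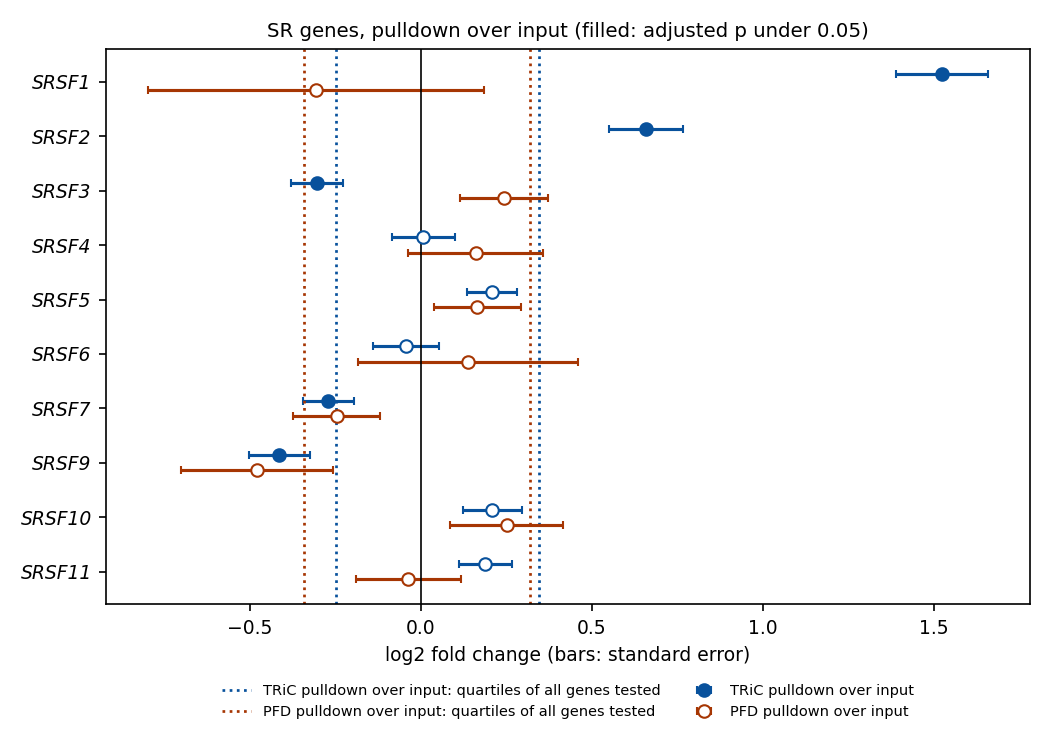
Log2 fold change of pulldown over input for the SR genes in the TRiC line (blue) and the PFD line (brown), with SE bars, filled points where the adjusted p was under 0.05, and dotted lines at the quartiles of all genes tested. SRSF1 at 1.52 and SRSF2 at 0.66 lie beyond the upper TRiC quartile, no PFD point is filled, and the PFD value of SRSF2 is left out because it was not tested.

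In the PFD pulldown against its input none of the 9 SR genes tested was called by edgeR, beside 34 of 14111 genes in all (0.241%). At an unadjusted p under 0.05 none of the 9 passed and 978 genes did, and DESeq2 called none of the 9. Their median log2 fold change was 0.14 (-0.019 without PFD pulldown replicate 2), and they ran from -0.48 for SRSF9 to 0.25 for SRSF10. The common dispersion, estimated over all genes, was 0.331 for the PFD libraries and 0.0153 for the TRiC libraries. SRSF3 had an SE of 0.13 in the PFD pulldown and 0.08 in the TRiC pulldown, and SRSF9 0.22 and 0.09. A missing call in the PFD pulldown does not show that a change was absent.

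SRSF1 stood at 17.43 and 13.71 CPM before and at 11.78 and 13.15 CPM after the PFD pulldown, so that the pulldowns lay below both inputs by a small margin. The log2 fold change was -0.31 ± 0.49 (SE; edgeR adjusted p = 0.970). SRSF3 stood at 222.5 and 192.9 CPM before and at 231.3 and 256.0 after it (0.24 ± 0.13 (SE), edgeR adjusted p = 0.798). SRSF9, at 130.2 and 91.06 against 83.00 and 73.81 CPM, and SRSF7, at 342.5 and 307.4 against 284.8 and 257.0, were the other members whose groups did not overlap with the pulldown below.

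Whether the PFD and TRiC pulldowns differed in their enrichment was tested as an interaction over all 8 libraries. No SR gene of the 9 was called by edgeR (7 of 18855 genes in all, 0.0371%). SRSF1 had a difference (PFD minus TRiC, log2) of -1.85 ± 0.36 (SE), with an unadjusted p of 0.000894 from edgeR's fit and an adjusted p of 0.143. SRSF3 had a difference of 0.54 ± 0.14 (SE; unadjusted p from edgeR 0.00579, adjusted 0.198). These were the 2 of the 9 with an unadjusted p under 0.05, beside 2791 genes in all. DESeq2 called both, with adjusted p = 0.000293 for SRSF1 and 0.00409 for SRSF3, beside 1017 of 18855 genes in all. Without the filter on low counts edgeR called SRSF1 (adjusted p = 0.0394), beside 511 of 37463 genes. Over the 14 other settings the difference ran from -1.99 to -1.65 for SRSF1 and from 0.44 to 0.66 for SRSF3.

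SRSF2 stood apart in the PFD inputs, which is what it was chosen for. It had 9820 and 5389 counts there, or 521.8 and 520.4 CPM, against 31.56 and 31.81 CPM in the TRiC inputs. In the PFD pulldowns it had 318 and 1419 counts, or 33.45 and 51.42 CPM. The PFD inputs were thus the high libraries, and the PFD pulldowns overlapped the TRiC pulldowns. The log2 fold change was 4.04 for PFD input over TRiC input, -3.60 for PFD pulldown over PFD input and -0.23 for PFD pulldown over TRiC pulldown (0.03 without PFD pulldown replicate 1). Of the genes counted 100 times or more on average, 44 of 11111 had a higher value between inputs, and 16 of 10140 had a lower one in the PFD pulldown.

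Annotation around SRSF2 (chr17:76734115-76737333, minus strand) sets it apart from the other members. MFSD11, a gene of the major facilitator transporter family on the opposite strand, covers 85.7% of the SRSF2 coding sequence with its exons, including the RS window printed above, and MIR636 lies inside SRSF2 and was listed at 0 in all 8 libraries. Among the other 9 genes, opposite-strand exons cover 26.1% of the coding sequence of SRSF1 (ENSG00000279069), 21.3% of that of SRSF9 (GATC) and none of the rest. MFSD11 did not mirror SRSF2, with 31.28 and 28.90 CPM in the TRiC inputs. Its PFD inputs held 46.44 and 41.72 CPM, and its PFD pulldowns 33.56 and 66.24. The nearest genes without overlap, METTL23 (plus strand, 179 bases away) at 13.18 and 11.30 CPM and JMJD6 (minus strand) at 62.76 and 57.07 CPM in the PFD inputs, lay within 2-fold of their means in the TRiC inputs, 17.5 and 38.3.

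Some of the other genes under opposite-strand exons also had large values in these comparisons. Of 31 coding genes averaging 100 counts or more with at least 80% of the coding sequence so covered, SR genes left out, 14 (45.2%) were at least 4-fold higher in the PFD inputs than in the TRiC inputs, beside 92 of 8144 genes (1.13%) free of overlap. Of 29 such genes 15 (51.7%) were at least 4-fold lower in the PFD pulldown than in its input, beside 9 of 7484 (0.120%). In the TRiC pulldown over input 0 of 27 were 4-fold higher or lower, and between the pulldowns 1 of 24 was 4-fold higher and 2 were lower. These limits were chosen after values were seen, and the counts carry no test. STAR writes a count that ignores strand and 1 for each strand, and which of these was deposited is not given in the sources used here. The part of strand and overlap in the SRSF2 values was not tested.

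The genes whose log2 CPM over the 8 libraries was most like that of SRSF2, among 11257 averaging 100 counts or more, were TPM4 (Pearson r = 0.990), BDNF (0.985), ZNF593 (0.985), H2AC15 (0.984) and TMED5 (0.974). Each r is over 8 libraries and is set mainly by the 2 PFD inputs, which stand apart. ZNF593, with all of its coding sequence under opposite-strand exons, held 579 and 285 counts in the PFD inputs and was listed at 0 in the other 6 libraries. TPM4, BDNF and TMED5 had 17.7%, 44.1% and 27.5% of their coding sequence so covered. H2AC15, a histone H2A gene, had 519 and 377 counts in the PFD inputs and 0 elsewhere without any opposite-strand exon over it. For the mean of the other 9 SR genes the likest were CEP128 (0.932), PTPN14, PNISR, FHIP1A and ESCO1 (0.922 to 0.911), of which PNISR itself codes for a protein rich in serine and arginine.

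Between the inputs of the 2 lines 6583 of 16341 genes (40.3%) were called, and 1 of the 9 SR genes tested, SRSF5, was among them. SRSF5 had 361.2 and 399.3 CPM in the TRiC inputs and 238.7 and 221.0 in the PFD inputs, with no overlap. The log2 fold change was -0.73 ± 0.08 (SE; edgeR adjusted p = 0.00181), and it was called under all 11 other settings. The same direction appeared in the pulldowns, where SRSF5 had 425.9 and 453.1 CPM with TRiC and 232.5 and 278.7 with PFD (-0.78 ± 0.13 (SE), edgeR adjusted p = 0.0316). The other 8 genes ran from -0.25 for SRSF6 to 0.41 for SRSF9 between inputs, where the PFD inputs of SRSF9 lay far apart at 130.2 and 91.06 CPM. Without PFD input replicate 2 the value was 0.61 for SRSF9 and 0.29 for SRSF7. The median of the 9 genes was 0.13, against -0.11 over all genes, and -0.0023 without PFD input replicate 1. SRSF4, SRSF6 and SRSF11 ran from -0.27 to -0.16, -0.31 to -0.22 and 0.13 to 0.29 over the 11 other settings. With a PFD input left out more SR genes were called, and so were more of all genes.

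Between the pulldowns 3993 of 17071 genes (23.4%) and 3 of the 9 SR genes were called. SRSF1, at 35.88 and 44.80 CPM with TRiC and 11.78 and 13.15 with PFD, was lower with PFD by -1.69 ± 0.26 (SE; edgeR adjusted p = 0.0276). SRSF3, at 158.2 and 152.4 with TRiC and 231.3 and 256.0 with PFD, was higher by 0.65 ± 0.11 (SE; edgeR adjusted p = 0.0320). In their inputs neither differed past the threshold, with 0.16 ± 0.22 (SE) for SRSF1 and 0.12 ± 0.09 (SE) for SRSF3. Both calls were lost without TRiC pulldown replicate 1 (0.120 and 0.108) and without TRiC pulldown replicate 2 (0.413 and 0.181), while SRSF5 kept its call. SRSF6, SRSF7 and SRSF9 ran from -0.502 to 0.225, 0.025 to 0.317 and 0.227 to 0.397 over the 11 other settings. With a PFD pulldown left out some of these were called, as were more of all genes.

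**Figure D3:**
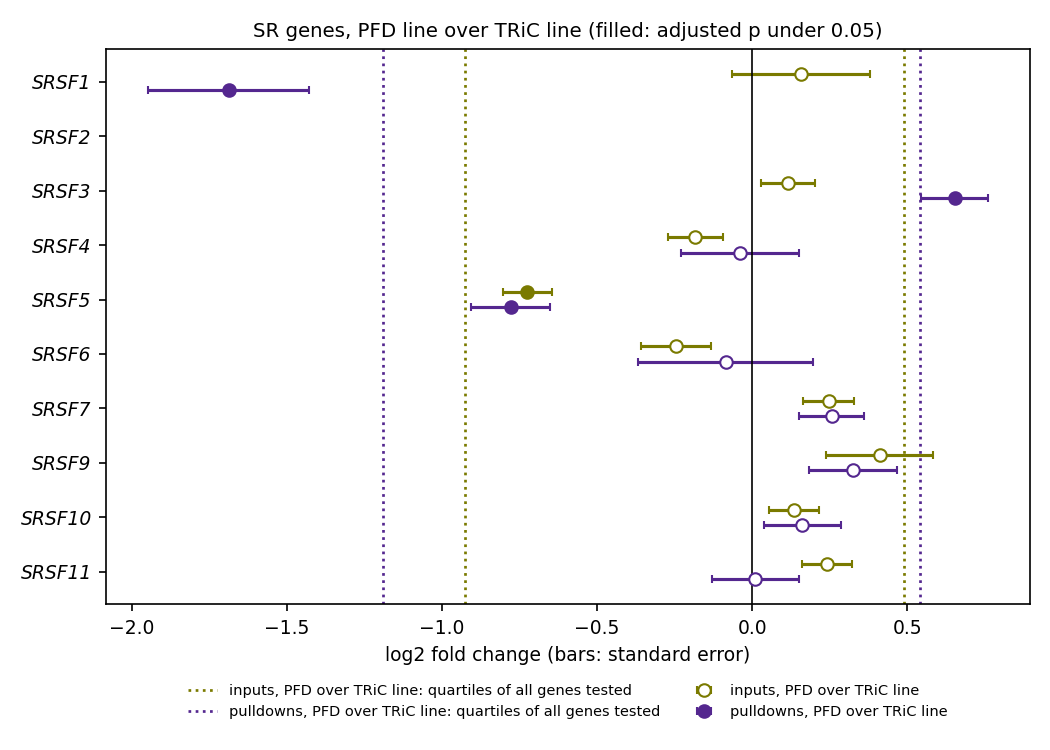
Log2 fold change of the PFD line over the TRiC line for 9 SR genes in the inputs (olive) and the pulldowns (purple), with SE bars, filled points where the adjusted p was under 0.05, and dotted lines at the quartiles of all genes tested. SRSF5 is lower in both (-0.73 and -0.78), SRSF1 only has a filled point in the pulldowns (-1.69), and SRSF2 is left out because it was not tested.

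The genes that act on SR proteins or beside them were followed in 4 lists. In the TRiC pulldown 4 of the 9 kinases and importins were higher and none lower, namely CLK1 (0.46), CLK2 (0.34), CLK4 (0.56) and PRPF4B (0.39), with edgeR adjusted p of 0.00781, 0.0304, 0.0450 and 0.0129. None of these 4 was followed under other settings. Of 25 other SR and RS domain proteins 4 were higher and 4 lower, led by SREK1, a splicing regulator with RS domains, at 0.67 ± 0.10 (SE; edgeR adjusted p = 0.000217). SRSF8 was among the lower 4, at -0.46 (edgeR adjusted p = 0.00469), and was not followed under other settings. Over all genes 1550 were higher and 1894 lower of 17934 tested. Of 24 hnRNP proteins 1 was higher and 9 were lower, with PCBP1 the lowest at -0.78 (edgeR adjusted p = 3.60e-05), and of 20 Sm, U1 and U2 snRNP proteins 1 was higher and 11 were lower. With all 8 libraries in one fit, where 31 of 18855 genes were called, the calls of SREK1 (0.219), PCBP1 (0.0932), SNRPG (0.985) and SNRPD3 (0.895) were lost. The list medians were 0.13, -0.01, -0.12 and -0.32, against -0.0032 over all genes. SNRPG, an Sm ring protein, was the lowest snRNP gene at -0.70, while SNRPD3 stood at 0.94 on 89 to 187 counts and was not called without TRiC input replicate 2 (0.121) or TRiC pulldown replicate 2 (0.233). In the PFD pulldown none of the tested genes of the 4 lists (24, 9, 24 and 20) was called by edgeR, beside 34 of 14111 genes in all (0.241%).

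SRPK1, the main cytosolic kinase of SR proteins, had the highest log2 fold change between the inputs of the 2 lines among these genes. It had 65.73 and 66.47 CPM in the TRiC inputs and 228.0 and 254.3 in the PFD inputs, without overlap. The log2 fold change was 1.87 ± 0.09 (SE; edgeR adjusted p = 0.000171), and it was 1.66 ± 0.11 (SE) between the pulldowns (edgeR adjusted p = 0.00724). HNRNPAB was also higher in both, by 1.22 and 1.82 (edgeR adjusted p = 0.000386 and 0.00716). SRSF8 was higher in the PFD inputs by 0.46 (edgeR adjusted p = 0.0191). SRSF12, a splicing repressor of the family, had 29 and 30 counts in the TRiC inputs, the same counts in the TRiC pulldowns, and 0 in all 4 PFD libraries. Against a floor of 3 counts per library it was at least 4.49-fold lower in the PFD inputs and at least 4.82-fold lower in the PFD pulldowns. RSRP1, an arginine and serine rich nuclear protein, was lower in the PFD pulldowns by -1.45 (edgeR adjusted p = 0.0176), but not without TRiC pulldown replicate 1 (0.152) or replicate 2 (0.0926). SNRPG was lower in the PFD inputs by -0.68 (edgeR adjusted p = 0.0373), but not without TRiC input replicate 1 (0.428) or replicate 2 (0.208). Between inputs 7 of 25 other RS domain proteins, 2 of 9 kinases and importins, 13 of 24 hnRNP proteins and 10 of 20 snRNP proteins were higher, and 3, 0, 4 and 1 were lower, beside 2898 higher and 3685 lower of 16341 over all genes (40.3% called). The 3 lower RS domain proteins include SRSF12, which passed the filter on low counts through its TRiC libraries alone and could only be called lower.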

How the data were processed

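RPFs were sequenced from 8 libraries, namely inputs and pulldowns of the CCT4-Halo and PFDN4-Halo lines with 2 biological replicates each. The deposited values are raw counts per gene, in a table for each line. Per the labels and methods, the authors demultiplexed and trimmed their reads, handled unique molecular identifiers with UMI-tools, removed non-coding RNA with Bowtie2 2.4.2 and mapped unique alignments to hg38 with STAR 2.7.10a and its gene counting. The annotation release and the strand column are not given in the sources used here. Of 60664 identifiers, 60463 matched GENCODE release 44, which gave names, coding sequences of canonical transcripts, overlaps and, with the hg38 genome, the printed sequences.

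From the deposited counts, edgeR 4.0.16 in R 4.3.3 (TMM, filterByExpr, glmQLFit, glmQLFTest) compared groups in fits of the 4 libraries concerned, with an interaction over all 8, and Benjamini-Hochberg adjusted p under 0.05 over all genes tested. SE is the log2 fold change over the square root of F. CPM used a prior count of 2 only for correlations. Alternatives were library totals, cyclic loess with limma-trend (limma 3.58.1), DESeq2 1.42.0, no filter, at least 10 counts in every library, all 8 libraries in one fit, a replicate block and leaving out each library. The fits were tested on simulated data. Totals ran from 9523128 to 32637658 counts. The lowest count of an SR gene was 112, for SRSF1 in PFD pulldown replicate 1. Counting error was not set apart from replicate spread.

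The SR genes and the 4 pathway lists were chosen with earlier results of these data known. Named were all 10 SR genes, genes over or next to them (next to SRSF2 alone), the 5 genes most like SRSF2 and the 5 most like the mean of the others, and the 2 highest and 2 lowest called pathway genes per comparison. The other kinases, SRSF8, the 2-fold and 4-fold limits and the 80% overlap limit were chosen after values were seen.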

Additional observations from a re-analysis of the deposited data

Results flagged for a closer look

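SRSF2 moved in opposite directions in the 2 lines. Both TRiC pulldowns lay above both TRiC inputs, and both PFD pulldowns lay below both PFD inputs, so that the enrichment differed by -4.26 on the log2 scale (PFD minus TRiC). The difference was not tested, because SRSF2 was chosen on the PFD inputs, and it lay between -4.00 and -4.64 under the other settings. The coverage of SRSF2 by opposite-strand exons (85.7% of its coding sequence) goes with this value, and its part was not tested.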

How the results depend on the processing

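No tested SR gene that was called in the reported fits changed sign under any alternative. SRSF6, not called there between the pulldowns, ran from -0.502 to 0.225 in that comparison over the alternatives. The number of SR genes called in the TRiC pulldown (5) was 0 with all 8 libraries in one fit and 2 to 7 with 1 library left out. Between inputs it was 1, and 2 with cyclic loess or without a filter, 4 with DESeq2 and 1 to 4 with 1 library left out. Between the pulldowns it was 3, and 1 to 5 with 1 library left out, and the median of the 9 genes, 0.01, was -0.17 with cyclic loess and 0.0085 to 0.22 with 1 library left out. For the interaction it was 0, and 2 with DESeq2, 1 without a filter and 0 to 2 with 1 library left out. The cause was not tested.

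Same-numbered libraries of a line deviated together in TRiC (r = 0.213) but not in PFD (r = -0.0158), and the reported fits did not pair libraries by number. These correlations cannot exclude such pairs, since the paper took pulldowns and total RNA from ribosome pellets. With a replicate block 8 SR genes were called in the TRiC pulldown, with SRSF5 (adjusted p = 0.0027), SRSF10 (0.0306) and SRSF11 (0.0267) added, and 2 between inputs, with SRSF9 (0.0375) added.

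Over all genes, the 3444 calls of the TRiC pulldown became 31 with all 8 libraries and 1698 to 4698 with 1 library left out. The 34 of the PFD pulldown became 57 with loess, 551 with DESeq2, 152 without a filter, 83 with all 8 libraries, 134 with the block and 71 to 2434 with 1 library left out. The 6583 between inputs became 3858 with all 8 libraries and 3626 to 11084 with 1 left out, and the 3993 between pulldowns became 2258 with loess, 7122 with DESeq2 and 1128 to 11714. The 7 interaction calls became 4 with loess, 1017 with DESeq2, 511 without a filter, 14 with at least 10 counts, 0 with the block and 0 to 3931 with 1 left out. Loess moved the median of all genes from -0.111 to 0.0336 between inputs and from -0.157 to 0.0423 between pulldowns. The median of the SR genes turned to -0.019 in the PFD pulldown without PFD pulldown replicate 2 and to -0.0023 between inputs without PFD input replicate 1. A fit without 1 library assumes that the lone sample varies like the other group.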
